A study of Caenorhabditis elegans with 12 samples.

Results

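The Caenorhabditis elegans genes rde-1, ergo-1, alg-1, alg-2, alg-3 and alg-4 encode Argonautes that bind small RNAs near the start of their pathways, and the small RNAs that map to these genes themselves are described here. They were chosen by name and found as 6 of the 42048 genes listed in each of the 4 deposited tables, 34246 of them with at least 1 read. Small RNA was sequenced from whole young mothers that had been synchronized by starvation, kept at 20 °C and fed HT115 bacteria producing a double-stranded RNA of 400 nt from pos-1, a gene needed for embryonic cell fates. The animals were meg-3(ax3055) meg-4(ax3052) double mutants, rde-11(hj37) mutants and N2, the wild type, and every strain received the pos-1 food, so that no unfed animals were compared. RNA of each strain entered a TruSeq small RNA library either after 5′ polyphosphatase treatment (treated RNA) or without it (untreated RNA). The 6 groups, treated and untreated meg-3 meg-4, rde-11 and N2 RNA, had 2 libraries each. MEG-3 and MEG-4 are disordered proteins of the germ granules called P granules, and RDE-11, a zinc finger protein, is required for making secondary small RNAs during RNA interference. The sources used here do not describe the alleles, and replicates 1 and 2 of meg-3 meg-4 have different strain numbers in their titles under the same genotype label.

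Argonautes carry a small RNA that guides them to matching transcripts. RDE-1 receives the primary small interfering RNAs that Dicer cuts from double-stranded RNA, ERGO-1 binds 26G RNAs of oocytes and embryos, ALG-3 and ALG-4 bind 26G RNAs of the sperm-producing germline, and ALG-1 and ALG-2 bind microRNAs. Transcripts that an Argonaute recognises can become templates for RNA-dependent RNA polymerases, which make 22G RNAs with a 5′ triphosphate. The library kit ligates its adapter to a 5′ monophosphate, so 22G RNAs enter mainly after polyphosphatase treatment, whereas microRNAs, piRNAs and 26G RNAs enter without it. A value below is thus the level of small RNAs assigned to an Argonaute gene, not the level of its mRNA or protein, and not the small RNAs its protein binds. In RNA from whole worms, fewer cells of a type and less RNA per cell cannot be told apart.

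Library totals were 3884534 to 5278777 reads on genes, and 1 read equalled 0.189 to 0.257 fpm (fragments scaled to a common library total, the unit of the deposited tables, not corrected for gene length). The strain genes matched the labels: meg-4 had 0 and 0.379 fpm in treated meg-3 meg-4 RNA, against 72.5 and 71.4 fpm in N2, and meg-3 averaged 1.19 ± 0.190 fpm, against 12.05 ± 3.21 fpm in N2 (SD, n = 2 each). The label of rde-11 could not be checked in this way, since rde-11 itself had 751 ± 10.04 fpm in its mutant and 633 ± 3.33 fpm in N2. Reads of microRNAs took 22.4%, 17.7% and 19.4% of treated libraries of meg-3 meg-4, rde-11 and N2, and 67.4%, 60.4% and 63.4% of their untreated libraries. None of the 6 Argonaute genes shared an identical line of values with another gene. ergo-1 overlaps exons of pei-2 on the opposite strand in the WBcel235 annotation. Since the counting of strands is not given, reads of this pair cannot be told apart where their exons overlap. alg-1 overlaps the snoRNA K02B9.10, with a mean of 0.837 fpm over the treated libraries, and alg-2 overlaps the noncoding RNA T07D3.12, with a mean of 0.033 fpm, and T07D3.11, which matched no line of the tables. rde-1, alg-3 and alg-4 overlap no other annotated gene. Marker genes of the germline, sperm, intestine, muscle and neurons had small RNAs in every treated library, with at least 1 gene of each list above 0.

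The 6 genes fell into a group of 4 and a pair when treated RNA was set against untreated RNA of the same strain. Small RNAs of rde-1, ergo-1, alg-1 and alg-2 were higher in treated RNA of every strain, and those of alg-3 and alg-4 were lower in treated RNA of every strain, on the scale of the library total. In each strain 4 of 6 genes rose and 2 of 6 fell at a limma adjusted p under 0.05 (Benjamini-Hochberg over all genes tested). Among all genes tested, 57.1% were called higher and 32.5% lower in treated meg-3 meg-4 RNA, 55.3% and 38.6% in rde-11, and 57.0% and 35.4% in N2, so that both directions were common. The values of each gene follow, by the role of its protein.

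rde-1 (K08H10.7, WBGene00004323), the Argonaute of primary small interfering RNAs, had 28.7 and 67.3 fpm in treated meg-3 meg-4 RNA, 74.7 and 94.0 fpm in rde-11, and 46.1 and 57.8 fpm in N2. In untreated RNA it had 0.996 and 2.07 fpm in meg-3 meg-4 worms, 2.58 and 3.35 fpm in rde-11, and 1.31 and 4.34 fpm in N2. Every treated library was far above every untreated one, which held only 5 to 19 reads of the gene. The log2 change of log2(fpm + 1), a scale that shrinks the change of sparsely covered genes, was 4.19 ± 0.47 (SE) in meg-3 meg-4, 4.43 ± 0.22 in rde-11 and 3.90 ± 0.42 in N2 (limma adjusted p = 0.000663, 5.7e-06 and 0.000347). In N2 the call was lost without treated replicate 1 (limma adjusted p = 0.0567) and without treated replicate 2 (0.0649). The ratio of pooled reads scaled to the library totals, with a 95% interval for counting error only, was 32.2 (19.3 to 58.0) in meg-3 meg-4, 28.8 (19.4 to 44.7) in rde-11 and 18.4 (12.3 to 28.7) in N2.

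ergo-1 (R09A1.1, WBGene00019971), the 26G Argonaute of the female germline and embryo, had 32.3 and 41.7 fpm in treated meg-3 meg-4 RNA, 70.8 and 64.4 fpm in rde-11, and 57.3 and 53.2 fpm in N2. Its untreated libraries had 1.39 and 1.03 fpm in meg-3 meg-4 worms, 1.93 and 2.32 fpm in rde-11, and 1.31 and 1.83 fpm in N2. All 6 untreated values lie between 1.03 and 2.32 fpm, with both rde-11 libraries the highest. The log2 change was 4.10 ± 0.26 (SE), 4.46 ± 0.20 and 4.46 ± 0.21 in meg-3 meg-4, rde-11 and N2 (limma adjusted p = 0.000105, 4.11e-06 and 1.79e-05). For the overlapping pei-2 the order of the RNA treatments was the other way round: it averaged 8.82, 7.26 and 9.82 fpm in treated meg-3 meg-4, rde-11 and N2 RNA, and 17.8, 12.97 and 19.9 fpm in untreated RNA.

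alg-1 (F48F7.1, WBGene00000105) and alg-2 (T07D3.7, WBGene00000106), the microRNA Argonautes, had fewer small RNAs. alg-1 had 12.9 and 9.47 fpm in treated meg-3 meg-4 RNA, 17.7 and 20.3 fpm in rde-11, and 11.4 and 12.7 fpm in N2. In untreated RNA it had 2 and 0 reads in meg-3 meg-4 worms, 1 read in each rde-11 library and none in N2, where 0 reads in a library allow up to 3. It was thus nearly absent from every untreated library. Its log2 change was 3.35 ± 0.29 (SE), 4.01 ± 0.21 and 3.70 ± 0.19 in meg-3 meg-4, rde-11 and N2 (limma adjusted p = 0.000266, 6.2e-06 and 2.31e-05). The ratio of pooled reads was 54.6 in meg-3 meg-4 (95% counting interval 14.8 to 457) and 81.1 in rde-11 (22.1 to 674). In N2, alg-1 was at least 17.9-fold higher in treated RNA, with the untreated level set to 3 reads per library.

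alg-2 had 4.86 and 7.77 fpm in treated meg-3 meg-4 RNA, 8.26 and 12.7 fpm in rde-11, and 5.91 and 7.88 fpm in N2. In untreated RNA it had 0 and 2 reads in meg-3 meg-4 worms, 9 and 7 reads in rde-11, and 1 read in each N2 library. The rde-11 libraries held most of the untreated reads of this gene. The log2 change of alg-2 was 2.59 ± 0.31 (SE), 1.97 ± 0.26 and 2.68 ± 0.22 in meg-3 meg-4, rde-11 and N2 (limma adjusted p = 0.000829, 0.000382 and 0.000106). Ratios of pooled reads were 31.5 in meg-3 meg-4 (counting interval 8.37 to 266), 5.57 in rde-11 (3.28 to 10.1) and 30.5 in N2 (8.09 to 257).

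alg-3 (T22B3.2, WBGene00011910) and alg-4 (ZK757.3, WBGene00006449), the 26G Argonautes of spermatogenesis, were highest in untreated RNA. alg-3 had 10.99 and 10.2 fpm in treated meg-3 meg-4 RNA, 5.11 and 6.64 fpm in rde-11, and 8.36 and 9.55 fpm in N2. Its untreated libraries had 24.3 and 24.4 fpm in meg-3 meg-4 worms, 20.0 and 23.2 fpm in rde-11, and 25.2 and 32.4 fpm in N2. The lowest untreated library was above the highest treated one. For alg-3 the log2 change was -1.13 ± 0.21 (SE), -1.72 ± 0.22 and -1.57 ± 0.22 in meg-3 meg-4, rde-11 and N2 (limma adjusted p = 0.00451, 0.000359 and 0.000996). The level in untreated RNA was thus 2.30, 3.65 and 3.23 times that in treated RNA, as ratios of pooled reads.

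alg-4 had 4.86 and 6.06 fpm in treated meg-3 meg-4 RNA, 6.29 and 4.83 fpm in rde-11, and 10.8 and 7.64 fpm in N2. Its untreated libraries had 17.3 and 18.2 fpm in meg-3 meg-4 worms, 15.3 and 13.1 fpm in rde-11, and 17.5 and 23.1 fpm in N2. As for alg-3, no treated library reached an untreated one. limma gave a log2 change of -1.54 ± 0.23 (SE), -1.22 ± 0.22 and -1.06 ± 0.26 (limma adjusted p = 0.00195, 0.00195 and 0.00937), and untreated levels were 3.23, 2.57 and 2.17 times the treated ones in meg-3 meg-4, rde-11 and N2. In N2 the alg-4 call was lost without treated replicate 1 (limma adjusted p = 0.0630) and without treated replicate 2 (0.115).

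**Figure D1:**
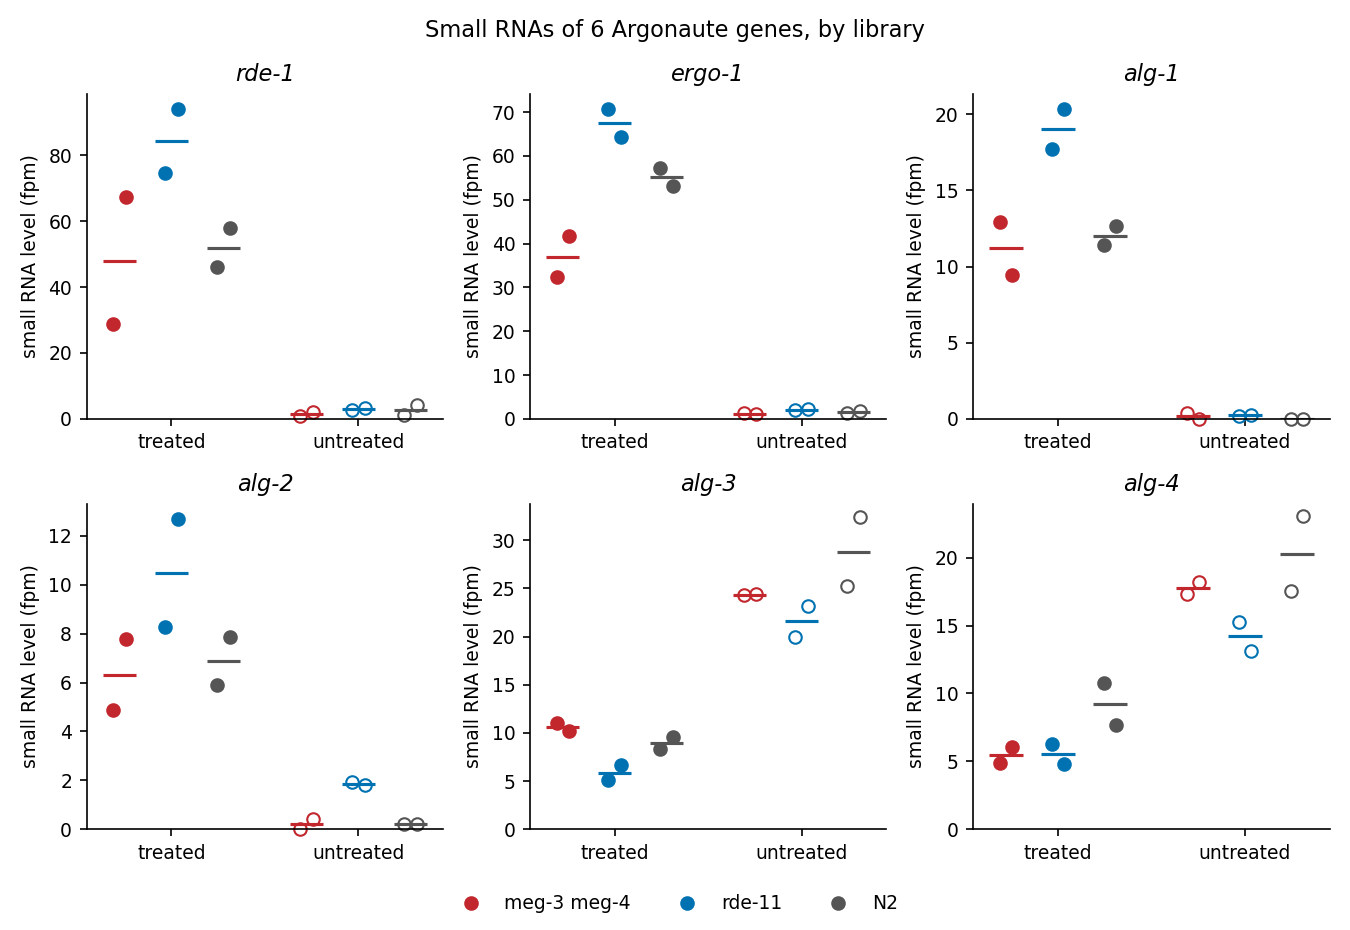
Small RNA level in fpm (linear axis, 1 panel per gene) in each library of treated (filled circles) and untreated RNA (open circles) of meg-3 meg-4, rde-11 and N2; horizontal lines are means of 2 libraries. rde-1, ergo-1, alg-1 and alg-2 are high in treated RNA and close to 0 in untreated RNA, whereas alg-3 and alg-4 are higher in every untreated library.

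The size and the direction of these changes depended on the scale, since the RNA treatments gave libraries of different composition. The median log2 level of microRNAs with a mean of at least 50 fpm, taken in each library, differed between treated and untreated RNA by -1.57 in meg-3 meg-4, -1.79 in rde-11 and -1.53 in N2, close to the values of alg-3 and alg-4. Relative to this microRNA median, alg-3 changed by 0.44, 0.07 and -0.04 and alg-4 by 0.02, 0.57 and 0.47 on the log2 scale in meg-3 meg-4, rde-11 and N2, and neither passed the limma test in any strain. Scaled to the microRNA reads of each library (reads per 1000000 microRNA reads), alg-3 had 47.5, 33.4 and 46.5 reads in treated meg-3 meg-4, rde-11 and N2 RNA, and 36.1, 35.7 and 45.6 reads in untreated RNA. alg-4 had 24.7, 31.4 and 47.2 such reads in treated RNA and 26.4, 23.5 and 32.1 in untreated RNA. Relative to the same median, the other 4 genes rose in every strain, by 3.76 to 6.25 on the log2 scale. The median log2 level over all genes averaging 50 fpm or more (the median gene) differed by 4.35, 4.32 and 4.49 in meg-3 meg-4, rde-11 and N2. Relative to the median gene, alg-3 and alg-4 changed by -6.06 to -5.48 and passed the test as lower in all strains, alg-2 changed by -1.76, -2.35 and -1.81 and passed the test as lower in all strains. On this scale alg-1 changed by -0.998, -0.31 and -0.78 and passed as lower in meg-3 meg-4 and N2 (limma adjusted p = 0.0271 and 0.0280), rde-1 passed as lower in N2 (-0.58, 0.0385), and the other values of rde-1 and those of ergo-1, between -0.25 and 0.14, did not pass.

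**Figure D2:**
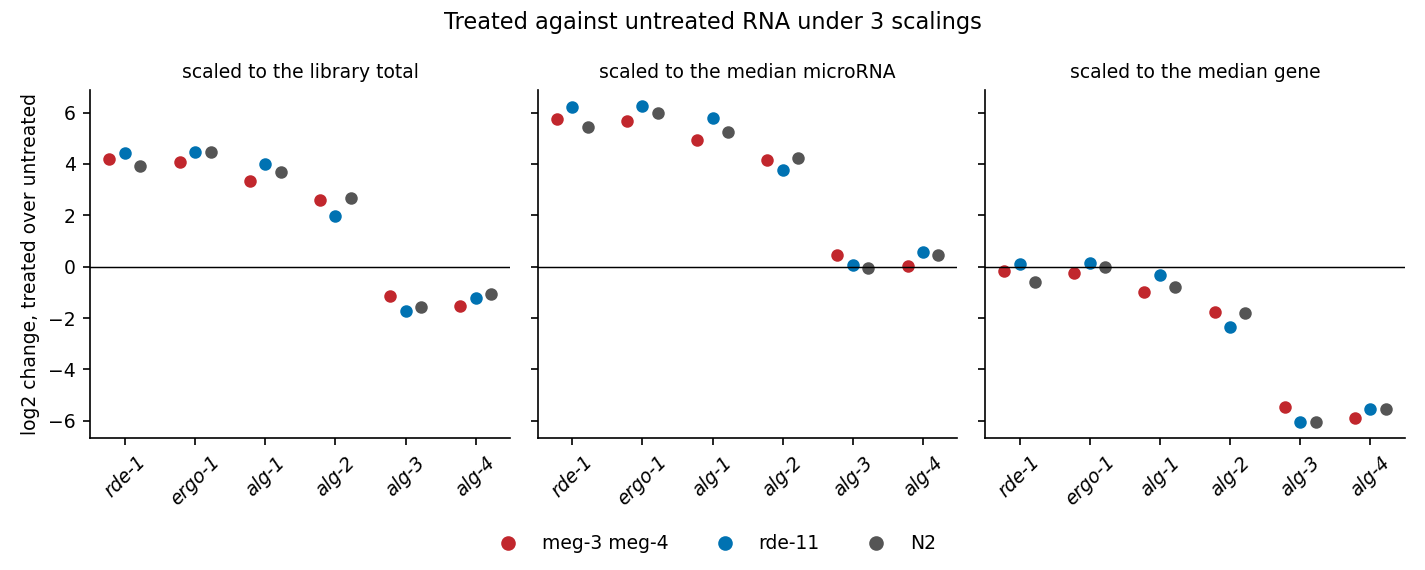
limma log2 change of treated over untreated RNA for each Argonaute gene in meg-3 meg-4, rde-11 and N2, scaled to the library total, to the median microRNA or to the median gene of at least 50 fpm. A scaling moves all genes of a strain by the same amount, so within a strain only the position of 0 differs between the panels. The amount taken off differs between meg-3 meg-4, rde-11 and N2: -1.57, -1.79 and -1.53 for the median microRNA, and 4.35, 4.32 and 4.49 for the median gene. alg-3 and alg-4 lie near 0 relative to the median microRNA and far below it relative to the median gene.

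A measure that needs no scaling is the share of the 6 genes' reads within a library. alg-3 and alg-4 together held 16.7% and 11.4% of these reads in treated meg-3 meg-4 RNA, 6.24% and 5.65% in rde-11, and 13.7% and 11.6% in N2. In untreated RNA they held 93.7% and 92.4% in meg-3 meg-4 worms, 84.1% and 82.5% in rde-11, and 93.8% and 89.7% in N2. Between RNA treatments the shares lay far apart in every strain. Within each RNA treatment both rde-11 libraries were lower than all other libraries. Group means were 14.1% ± 3.75, 5.95% ± 0.411 and 12.6% ± 1.52 in treated meg-3 meg-4, rde-11 and N2 RNA, and 93.0% ± 0.951, 83.3% ± 1.16 and 91.7% ± 2.89 in untreated RNA (SD, n = 2). Wilson 95% intervals of single libraries, which cover counting error only, ran from 4.39% to 20.5% over all treated libraries and from 76.1% to 96.3% over all untreated ones. For 2 libraries against 2, a two-sided exact permutation test cannot go below p = 0.333, so no p is given for these shares.

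**Figure D3:**
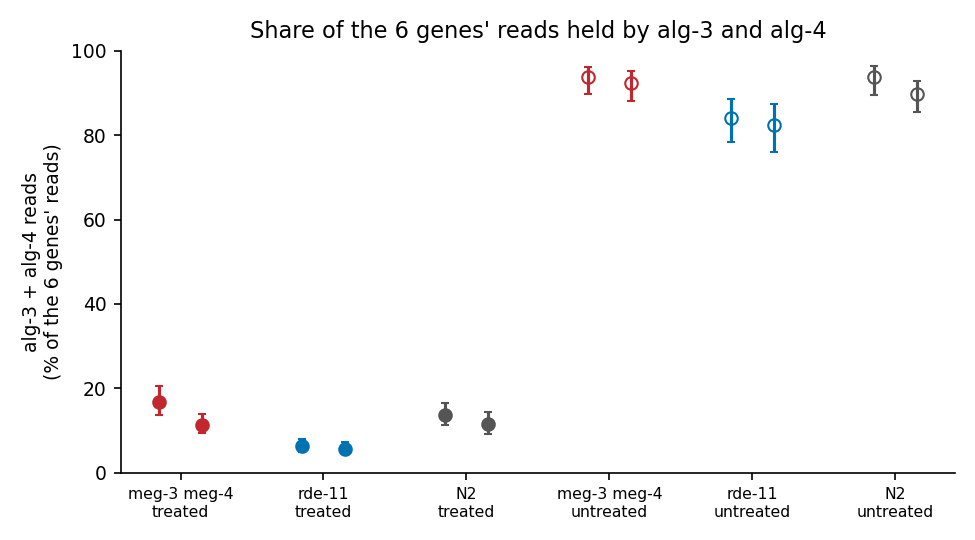
Percentage of the reads of the 6 Argonaute genes that mapped to alg-3 or alg-4, per library, with Wilson 95% intervals (counting error only). Filled circles are treated RNA (5.65% to 16.7%) and open circles untreated RNA (82.5% to 93.8%) of meg-3 meg-4, rde-11 and N2.

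Levels per kilobase of annotated exon (WBcel235) allow the genes to be ordered, with the limit that whether exons or whole genes were counted is not given. In treated RNA of N2 the order was rde-1 with 16.1 ± 2.57, ergo-1 with 15.1 ± 0.780, alg-3 with 2.73 ± 0.258, alg-4 with 2.66 ± 0.646, alg-1 with 1.80 ± 0.131 and alg-2 with 1.66 ± 0.336 fpm per kb (SD, n = 2). The SDs did not separate rde-1 from ergo-1, alg-3 from alg-4, or alg-1 from alg-2. For comparison, the median protein-coding gene was at 1.53 fpm per kb, so the last pair was near the middle of all genes. In untreated RNA of N2, alg-3 led with 8.80 ± 1.56 fpm per kb, followed by alg-4 with 5.86 ± 1.13, rde-1 with 0.878 ± 0.664, ergo-1 with 0.430 ± 0.0990, alg-2 with 0.0540 ± 0.0016 and alg-1 at 0. There rde-1 and ergo-1 were not separated by their SDs, and the mutants had the same gene order. In treated RNA, rde-1 led in both mutants, with 14.9 ± 8.46 fpm per kb in meg-3 meg-4 worms and 26.2 ± 4.25 in rde-11 worms. The lower places differed: in rde-11, alg-1 with 2.84 ± 0.279 and alg-2 with 2.53 ± 0.756 stood above alg-3 with 1.79 ± 0.331 and alg-4 with 1.61 ± 0.298 fpm per kb.

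Among all protein-coding genes, alg-3 and alg-4 belonged to a minority with a higher level without polyphosphatase. Of 9664, 9883 and 10137 protein-coding genes that averaged at least 1 fpm in meg-3 meg-4 worms, rde-11 and N2, 998, 1039 and 1044 had a higher mean in untreated RNA. alg-3 lay at a position with 4.07%, 0.911% and 1.76% of these genes below it in treated over untreated change, and alg-4 with 0.962%, 4.85% and 5.75%. By its level in untreated RNA, alg-3 ranked 199, 289 and 185 of 19574 protein-coding genes in meg-3 meg-4, rde-11 and N2, and alg-4 ranked 323, 465 and 312. The ranks of rde-1 were 3016, 2246 and 1929. The group means of the 3 sperm marker genes, msp-3, msp-19 and spe-11, had the same direction as alg-3 and alg-4. The libraries of msp-3 overlapped in N2, with 1.83 and 3.10 fpm in treated and 1.53 and 5.25 fpm in untreated RNA. The summed level of the markers was 7.96 and 8.88 fpm in treated meg-3 meg-4 RNA, 5.31 and 8.26 fpm in rde-11, and 7.88 and 8.56 fpm in N2. In untreated RNA the sum was 18.5 and 26.1 fpm in meg-3 meg-4 worms, 16.3 and 22.7 fpm in rde-11, and 20.4 and 25.3 fpm in N2, and none of the 3 was at 0 in any library. Their part in the level of alg-3 and alg-4 was not tested.

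**Figure D4:**
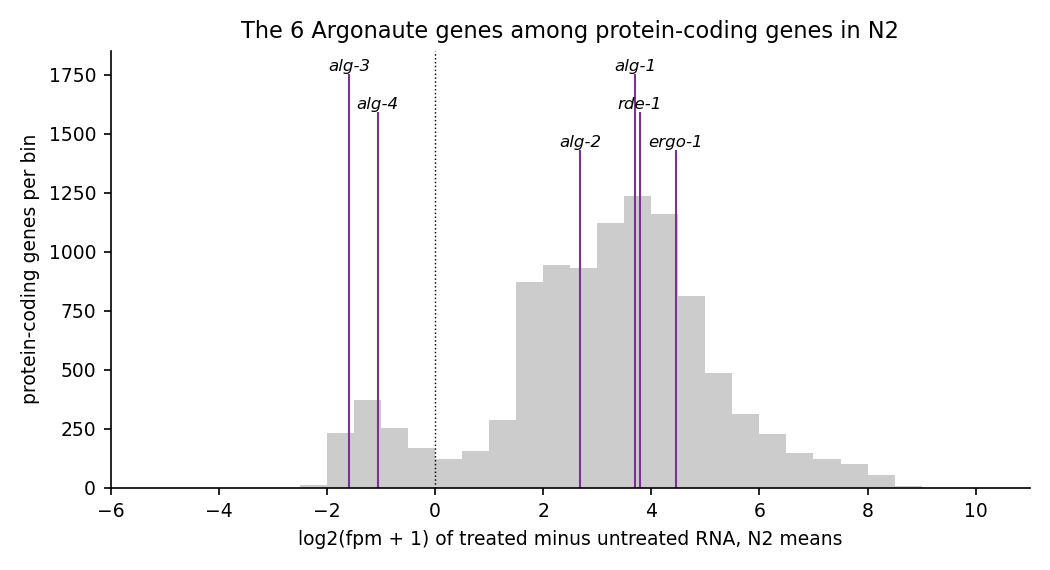
Protein-coding genes that averaged at least 1 fpm in N2 (grey bars, bins of 0.5), by the log2(fpm + 1) of mean treated minus mean untreated RNA; vertical lines mark the Argonaute genes. alg-3 and alg-4 lie left of 0 among the 1044 genes that were higher in untreated RNA, and the other 4 lie in the main body of the distribution.

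The mutants were then set against N2 within treated RNA. In meg-3 meg-4, 0 of the 6 Argonaute genes passed the test, with 8.27% of all 16253 genes tested called, 1.54% higher and 6.72% lower. In rde-11, 1 of 6 passed, rde-1, which rose, with 10.8% of 16491 genes called, 6.34% higher and 4.48% lower. A count of 1 in 6 is near that background. With the replicate number as a block, 3 of 6 passed in rde-11, rde-1, alg-1 and alg-4, with 25.5% of all genes called.

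In rde-11, rde-1 averaged 84.4 ± 13.7 fpm, against 51.9 ± 8.28 fpm in N2 (SD, n = 2 each), and both rde-11 libraries were above both N2 libraries. The log2 change was 0.69 ± 0.17 (SE; limma adjusted p = 0.0251), a ratio of pooled reads of 1.64. The call did not hold without N2 treated replicate 1 (limma adjusted p = 0.110), without rde-11 treated replicate 2 (0.220), with no filter on low values (0.132), relative to the median gene (0.0589), with all 3 strains in 1 limma fit (0.349) or with DESeq2 on the recovered reads (0.0900). The authors' deposited table gives a log2 fold change of 0.61 and an adjusted p of 0.0841. The sum of the germline marker genes glp-1, glh-1 and pgl-1 was higher in the same libraries. It was 825 and 988 fpm in rde-11, against 600.3 and 766 fpm in N2, with none at 0. The libraries of glh-1 overlapped, with 282 and 399 fpm in rde-11 and 197 and 306 fpm in N2. The sum of the 3 intestine markers was lower in treated RNA of rde-11, 25.6 and 31.8 fpm, against 45.4 and 45.4 fpm in N2, also with none at 0. In untreated RNA the intestine sum was higher in rde-11, 47.1 and 39.6 fpm, against 15.8 and 32.7 fpm in N2, with elt-2 at 0. The part of either list in the change of rde-1 was not tested.

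The genes of the microRNA Argonautes and ergo-1 pointed the same way in rde-11 without passing the test. alg-1 was at 19.01 ± 1.87 fpm in rde-11, against 12.03 ± 0.876 fpm in N2, with no overlap of libraries (log2 change 0.62 ± 0.20 SE, limma adjusted p = 0.0714, and 0.00920 with the replicate block). alg-2 was at 10.5 ± 3.13 fpm, against 6.89 ± 1.39 fpm (0.52 ± 0.26, limma adjusted p = 0.226). ergo-1 was at 67.6 ± 4.48 fpm, against 55.2 ± 2.85 fpm (0.29 ± 0.15, limma adjusted p = 0.269). The spermatogenesis pair pointed down, again without passing: alg-3 was at 5.88 ± 1.08 fpm in rde-11, against 8.95 ± 0.844 fpm in N2 (-0.54 ± 0.24, limma adjusted p = 0.178). alg-4 was at 5.56 ± 1.03 fpm, against 9.22 ± 2.24 fpm (-0.63 ± 0.26, limma adjusted p = 0.138, and 0.0492 with the block). The level of the median gene differed by 0.22 on the log2 scale in rde-11 (-0.14 in meg-3 meg-4). Relative to it, alg-3 and alg-4 passed as lower (limma adjusted p = 0.0462 and 0.0330), and rde-1 did not pass. On this scale 2069 of the 16491 genes tested were called.

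In meg-3 meg-4, the 2 treated libraries differed most for rde-1, whose replicate 2 was 2.34 times replicate 1 (counting interval 1.91 to 2.87). One of these libraries was below both N2 libraries and the other above both, so the log2 change of -0.22 ± 0.38 (SE; limma adjusted p = 0.848) has a wide interval, -1.12 to 0.67. The sum of the 3 germline markers also differed between these libraries, 536 and 871 fpm, through glh-1 and pgl-1. glp-1 went the other way, with 97.2 and 85.8 fpm. dcr-1, the gene of Dicer, had 53.9 and 96.8 fpm, and csr-1, a germline Argonaute gene, had 268 and 515 fpm. Replicate 2 was also the higher one in the other strains. There the germline sum was 600.3 and 766 fpm in N2 and 825 and 988 fpm in rde-11. csr-1 had 243 and 387 fpm in N2 and 484 and 641 fpm in rde-11. What part these differences between replicates have in the value of rde-1 was not tested. ergo-1 was lower in both libraries, 37.0 ± 6.60 fpm in meg-3 meg-4 worms, against 55.2 ± 2.85 fpm in N2, with a log2 change of -0.58 ± 0.23 and a limma adjusted p of 0.219. Without meg-3 meg-4 treated replicate 2, the log2 changes were -0.82 for rde-1 and -0.75 for ergo-1. Both rest on the single library left in that arm, which was assumed to vary like the others.

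The remaining genes of meg-3 meg-4 were near N2 in treated RNA, apart from alg-4. alg-1 stood at 11.2 ± 2.42 fpm in meg-3 meg-4 worms, against 12.03 ± 0.876 fpm in N2, and alg-2 at 6.31 ± 2.05 fpm, against 6.89 ± 1.39 fpm. Their 95% intervals of the log2 change, -0.71 to 0.49 and -0.83 to 0.57, still allow changes in either direction. alg-3 was slightly above N2, 10.6 ± 0.539 fpm in meg-3 meg-4 against 8.95 ± 0.844 fpm (0.22 ± 0.24 SE, limma adjusted p = 0.729). alg-4 was below it, 5.46 ± 0.849 fpm against 9.22 ± 2.24 fpm (-0.65 ± 0.27 SE, limma adjusted p = 0.252), with no overlap of libraries. In treated RNA both mutants thus had a lower alg-4 level than N2 in every library, but they share the same N2 libraries. Neither passed the main limma test. In meg-3 meg-4, alg-4 passed under no other setting either. In rde-11 it passed with the block (limma adjusted p = 0.0492) and relative to the median gene (0.0330), and under no other setting. At an unadjusted limma p under 0.05, ergo-1 and alg-4, 2 of 6, would be listed in meg-3 meg-4. The share of all genes at that limit was not computed, so this count has no background beside it. edgeR and DESeq2 on the recovered reads called 0 of 6, with 1180 and 973 of all genes called.

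**Figure D5:**
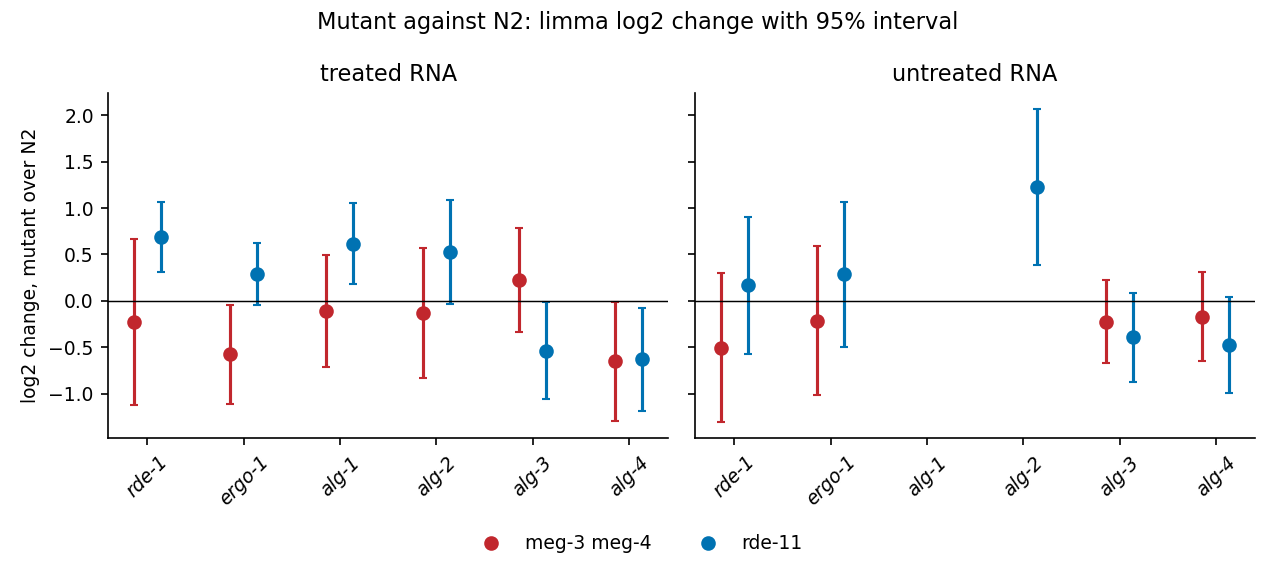
limma log2 change of meg-3 meg-4 and of rde-11 over N2, with 95% intervals, for each Argonaute gene in treated (left) and untreated RNA (right); genes under a mean of 1 fpm have no point. In treated RNA of rde-11, rde-1 lies at 0.69 and the pair alg-3 and alg-4 lies below 0. In untreated RNA the interval of alg-2 in rde-11 excludes 0 and the others include it. alg-2 has a point there only because its rde-11 libraries lifted its mean above 1 fpm.

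In untreated RNA, neither mutant had a called Argonaute gene. In meg-3 meg-4, 0 of the 4 genes tested passed the limma test (alg-1 and alg-2 were below a mean of 1 fpm), with 0.238% of 10902 genes called overall. In rde-11, 0 of 5 passed (alg-1 was too low), with 0.593% of 11629 genes called. At an unadjusted limma p under 0.05 the counts were 0 of 4 and 1 of 5 (alg-2, which passed the filter only through rde-11). The share of all genes at that limit was not computed, so these counts have no background beside them. edgeR and DESeq2 called 0 in both, with 22 and 18 of all genes called in meg-3 meg-4 and 64 and 20 in rde-11. DESeq2 gave no adjusted p for alg-2, rde-1 and ergo-1 in rde-11 or for ergo-1 in meg-3 meg-4 worms.

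alg-3, the most abundant of the 6 in untreated RNA, averaged 24.4 ± 0.0931 fpm in meg-3 meg-4 worms and 21.6 ± 2.25 fpm in rde-11 worms, against 28.8 ± 5.11 fpm in N2. alg-4 averaged 17.8 ± 0.630 and 14.2 ± 1.51 fpm, against 20.3 ± 3.91 fpm. For alg-3 every mutant library was below both N2 libraries, yet the log2 changes, -0.22 ± 0.22 in meg-3 meg-4 and -0.39 ± 0.25 (SE) in rde-11, had limma adjusted p-values of 0.784 and 0.565. For alg-4 they were -0.17 ± 0.24 and -0.48 ± 0.26 (limma adjusted p = 0.860 and 0.506). rde-1 and ergo-1 rested on 12 to 25 reads a group, and their log2 changes of -0.51 to 0.29 had limma adjusted p-values of 0.712 and above.

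Of the 5 genes tested in untreated RNA of rde-11, alg-2 had the largest log2 change. However, alg-2 passed the filter of 1 fpm only through the rde-11 libraries, with a mean of 1.05 fpm over the libraries of the fit. Its rank among the tested genes therefore depends on the group in which it was high. It had 1.93 and 1.80 fpm in rde-11, from 16 reads in all, against 0.219 and 0.228 fpm in N2, from 2 reads, a ratio of pooled reads of 8.38 with a counting interval of 1.97 to 75.1. The log2 change was 1.23 ± 0.43 (SE; limma adjusted p = 0.198). The adjusted p ranged from 0.127 to 0.865 over the alternatives. The difference between the RNA treatments in the change of alg-2 in rde-11 was not called either (interaction -0.71 ± 0.36 SE, limma adjusted p = 0.615).

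When the mutants were set against each other in treated RNA, 0 of 6 genes passed the limma test (12% of 16216 genes called). At an unadjusted limma p under 0.05, 4 of 6 would pass. The share of all genes at that limit was not computed, so this count cannot be set against the 12%. With the replicate block 5 of 6 passed, with 29.8% of all genes called: rde-1, ergo-1, alg-1 and alg-2 as lower in meg-3 meg-4 worms (limma adjusted p = 0.000261, 0.00106, 0.0192 and 0.0449) and alg-3 as higher (0.0163). The values that follow are without the block. ergo-1 averaged 37.0 ± 6.60 fpm in meg-3 meg-4 worms, against 67.6 ± 4.48 fpm in rde-11, and missed the threshold narrowly (log2 change -0.86 ± 0.23 SE, limma adjusted p = 0.0506). alg-3 averaged 10.6 ± 0.539 fpm in meg-3 meg-4 worms, against 5.88 ± 1.08 fpm in rde-11 (0.76 ± 0.25, limma adjusted p = 0.0862), and passed with edgeR (1.09, adjusted p = 0.0375) and relative to the median gene (1.13, limma adjusted p = 0.00902). DESeq2 called 0. rde-1 and alg-1 were lower in meg-3 meg-4 by values that did not pass, -0.91 ± 0.37 and -0.73 ± 0.26 (limma adjusted p = 0.158 and 0.109), and so was alg-2 at -0.65 ± 0.31 (0.211). alg-4 averaged 5.46 ± 0.849 fpm in meg-3 meg-4 worms, against 5.56 ± 1.03 fpm in rde-11, a log2 change of -0.02 ± 0.26 (limma adjusted p = 0.969), with an interval of -0.62 to 0.58.

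Tests of whether a mutant's change differed between treated and untreated RNA called 0 of 6 genes in meg-3 meg-4 (3.38% of 16459 genes called). In rde-11 they called 0 of 6 (0.455% of 16916). edgeR and DESeq2 also called 0 of 6, with 18 and 37 of all genes called in meg-3 meg-4 and 24 and 19 in rde-11. With so few genes called, these counts of 0 say little about the 6 genes. At an unadjusted limma p under 0.05 the counts were also 0 of 6. The share of all genes at that limit was not computed. In meg-3 meg-4 the limma differences between RNA treatments ran from -0.48 for alg-4 to 0.45 for alg-3 on the log2 scale, and in rde-11 from -0.71 for alg-2 to 0.52 for rde-1.

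Genes that work with these Argonautes were examined as 4 lists, with dcr-1 and rde-4 in 3 of them. Of the partners of RDE-1 in RNA interference, 2 of 15 tested rose in treated meg-3 meg-4 RNA and 0 fell, with 1.54% of all genes tested called higher and 6.72% lower: rde-11 (2.78, limma adjusted p = 1.56e-05) and sid-1, the double-stranded RNA channel (0.52, 0.0360). rde-11 had 4352 and 4367 fpm in meg-3 meg-4 worms, against 636 and 631 fpm in N2, so both libraries stood far above both N2 libraries. sid-1 had 991 and 875 fpm, against 640 and 656 fpm, a call lost under 4 of 9 other settings (adjusted p up to 0.573) and without either N2 treated library (limma adjusted p = 0.347 without replicate 1 and 0.261 without replicate 2). No gene of the 26G list (11 tested) or of the microRNA list (12 tested) changed in meg-3 meg-4, and of 18 other Argonaute genes wago-2, a pseudogene in the annotation, rose (0.55, limma adjusted p = 0.0394), a call lost under the same 4 settings (up to 0.573) and without the same libraries (0.478 and 0.210). The median log2 change of the 4 lists was 0.20, 0.17, 0.09 and 0.09. The median was -0.13 over all genes tested and -0.02 over those of at least 50 fpm.

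In treated RNA of rde-11, genes of every list rose. Among all genes tested 6.34% were called higher and 4.48% lower. Of the RDE-1 partners 3 of 16 rose and 0 fell: dcr-1 (0.75, limma adjusted p = 0.0196), drh-1, a Dicer-related helicase (0.89, 0.0144), and rrf-1, a polymerase of 22G RNAs (0.70, 0.00553). Of the 26G partners 4 of 11 rose: dcr-1 again, the polymerase of 26G RNAs rrf-3 (0.72, limma adjusted p = 0.0171), the exonuclease eri-1 (0.73, 0.0236) and the helicase drh-3 (0.58, 0.0291). Of the microRNA partners 3 of 12 rose, dcr-1 and the GW182 proteins' genes ain-1 (1.12, limma adjusted p = 0.000540) and ain-2 (1.10, 0.0103), which act with ALG-1 and ALG-2. ain-1 had 99.7 and 112 fpm in rde-11, against 50.5 and 45.4 fpm in N2, and was called under all 9 other settings and without any 1 library. dcr-1 had 89.4 and 126 fpm in rde-11, against 57.5 and 68.5 fpm in N2. The calls of drh-1, dcr-1, rrf-1, rrf-3 and ain-2 were lost with no filter and with all 3 strains in 1 fit, and those of drh-1, dcr-1 and rrf-3 also without rde-11 treated replicate 2 (limma adjusted p = 0.0801, 0.219 and 0.217). Those of eri-1 and drh-3 were lost under 4 and 6 of 9 settings (adjusted p up to 0.301 and 0.245). They were also lost without rde-11 treated replicate 2 (limma adjusted p = 0.113 and 0.154), without N2 treated replicate 1 (0.147 and 0.190) and, for drh-3, without rde-11 treated replicate 1 (0.0582).

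Of 17 other Argonaute genes tested in treated RNA of rde-11, 3 rose and 1 fell, with 6.34% of all genes called higher and 4.48% lower. wago-1, which binds 22G RNAs, rose by 1.16 on the log2 scale (limma adjusted p = 0.000604), with 145 and 190 fpm in rde-11, against 68.1 and 79.2 fpm in N2. csr-1, the Argonaute of 22G RNAs against germline-expressed genes, rose by 0.86 (limma adjusted p = 0.0123), and prg-2 by 0.88 (0.0217), a value that is uncertain because prg-2, a pseudogene in the annotation, is nearly identical to the Piwi gene prg-1. sago-1 fell to 0.983 and 0.604 fpm in rde-11, against 5.30 and 6.68 fpm in N2 (-1.96, limma adjusted p = 0.00118). The medians of the RDE-1, 26G, microRNA and other Argonaute lists were 0.39, 0.37, 0.36 and 0.31, and rde-1 was at 0.69. The median was 0.11 over all genes tested and 0.23 over those of at least 50 fpm. The call of sago-1 held under every setting that tested it, that of wago-1 was lost with all 3 strains in 1 fit, and those of csr-1 and prg-2 also with no filter. That of prg-2 was lost, too, with a filter at 10 fpm and without rde-11 treated replicate 2 (limma adjusted p = 0.144).

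In untreated RNA, of the 12, 8, 9 and 12 genes tested in each mutant, only rde-11 in meg-3 meg-4 rose (1.61, limma adjusted p = 0.000186), a call lost without meg-3 meg-4 untreated replicate 1 (limma adjusted p = 0.0576) or replicate 2 (0.0952) and with no filter (0.682). The median log2 changes of the 4 lists were 0.03, -0.08, 0.18 and 0.17 in meg-3 meg-4, against -0.19 over all genes, and 0.50, 0.46, 0.48 and 0.60 in rde-11, against 0.19. The level of rde-11 was 18.0 ± 0.923 fpm in meg-3 meg-4 worms, against 5.27 ± 0.944 fpm in N2. Between RNA treatments the lists went with rde-1, ergo-1, alg-1 and alg-2. All 15 tested RDE-1 partners, all 11 26G partners and all 12 microRNA partners were called higher in treated RNA of each strain, and so were 15 of 16, 14 of 15 and 16 of 16 other Argonaute genes in meg-3 meg-4, rde-11 and N2. None of these genes was called lower, on the scale of the library total, as alg-3 and alg-4 were.

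The genes with the profile most like that of each Argonaute gene over the 12 libraries were taken from 7306 genes that averaged at least 10 fpm in treated RNA, by the root mean square difference of centred log2(fpm + 1) values. For alg-3 they were C24H11.1 (0.11) and spch-1, a sperm chromatin gene (0.12). spch-1 averaged 42.3, 28.1 and 38.5 fpm in treated meg-3 meg-4, rde-11 and N2 RNA. In untreated RNA it averaged 97.7, 90.1 and 114 fpm. Since spch-1 was picked by likeness to alg-3 over these same libraries, its lowest values in rde-11 add no separate observation. For alg-4 they were Y57G11C.5 (0.21) and the snoRNA T19B4.8 (0.23). For rde-1 they were wdr-12 (0.17) and spr-1 (0.18), for ergo-1 T04A8.7 (0.11) and nduf-2.2 (0.12), and for alg-1 slrp-1 and famp-1 (both 0.18). For alg-2 they were clec-87 (0.21) and ppw-1 (0.25), itself an Argonaute gene, which averaged 4.38 ± 0.723 fpm in untreated RNA of rde-11, against 1.68 ± 0.523 fpm in N2. All these genes were picked by likeness over the same libraries, so a shared level, such as that of ppw-1 in rde-11, follows from the choice. The profiles are descriptions over libraries that share the same strains and RNA treatments, with no test.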

How the data were processed

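Per the file headers, the authors deposited 4 tables with values in fpm, a CPM unit (reads scaled to the library total), and a DESeq2 log2 fold change with an adjusted p-value (a Benjamini-Hochberg type of p-value in the authors' tables). Per the submitters' processing notes, the tools were cutadapt, Bowtie2, HTSeq and DESeq2 and the build was ce10. The sources used here give no versions, strand settings, read lengths or handling of multiply mapping reads. Averages made by the authors (8 columns) were left aside. Names, classes, overlaps and exon lengths came from WBcel235 (Ensembl release 115 and RefSeq), which matched 41759 identifiers.

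Each comparison was fitted over the whole table in limma 3.58.1 (R 4.3.3), with an intensity trend. Values were log2(fpm + 1), genes had to average at least 1 fpm in the libraries of the fit, and genes were called at an adjusted p under 0.05 (Benjamini-Hochberg). limma was planned for normalized values. Whole reads were recovered for 100% of the values above 0 at a tolerance of 0.01 reads, and were tested with edgeR 4.0.16 (quasi-likelihood, TMM) and DESeq2 1.42.0 as alternatives; in treated RNA edgeR called 1180 genes for meg-3 meg-4 and 1753 for rde-11. Other alternatives were a pseudocount of 0.25, no filter, a filter at 10 fpm, centring each library on its median over genes or microRNAs of at least 50 fpm, a replicate block, all 3 strains in 1 fit and leaving out each library. Groups share the replicate numbers 1 and 2 in their titles; deviations of replicate 1 from its group mean correlated at 0.20 to 0.60 over all 15 pairs of groups, so the fit with the block is given beside each result whose call it changed, although nothing in the labels ties equal numbers to a shared culture or day. The scripts were tested on simulated data. Nothing states that replicates came from separate cultures, so p-values measure only the spread between these libraries, which may be technical. The 95% counting intervals and the floor of 3 reads cover counting error only, as PCR copies were not marked by molecular identifiers. The 6 genes, the partner lists and the tests were chosen with earlier results of these data known. All 6 genes are described, list genes are named where called in a mutant against N2, and the 2 genes nearest in profile are named for each Argonaute gene; other genes were named after their values were seen.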

Additional observations from a re-analysis of the deposited data

Results flagged for a closer look

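In treated RNA, ergo-1 was below N2 in both meg-3 meg-4 libraries and above N2 in both rde-11 libraries. The limma difference of meg-3 meg-4 against rde-11 was -0.861306 on the log2 scale (adjusted p = 0.0506), so the direct test did not call it, but did with the replicate block (limma adjusted p = 0.00106). alg-3 had the opposite arrangement, above N2 in both meg-3 meg-4 libraries and below it in both rde-11 libraries. Its limma difference between the mutants was 0.763678 (adjusted p = 0.0862), and passed with the block (limma adjusted p = 0.0163). Both opposite directions are set against the same N2 libraries.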

How the results depend on the processing

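The counts of called Argonaute genes were 0 in meg-3 meg-4 against N2 in treated RNA, 1 in rde-11 against N2 and 0 between the mutants. With the replicate block the counts were 3 in rde-11 and 5 between the mutants, and the block changed no other call of an Argonaute gene. In rde-11 the count was 0 with no filter, with DESeq2 and with all 3 strains in 1 fit. It was 2 relative to the median gene, where 2069 of the 16491 genes tested were called. Between the mutants it was 1 with edgeR and 1 relative to the median gene, where 1684 and 1949 of 16216 genes were called. Leaving out 1 library gave 0 to 2 in meg-3 meg-4, 0 to 1 in rde-11 and 0 to 4 between the mutants. Each of these fits rests on 1 library in a group. In meg-3 meg-4 and between the mutants, the fits with the highest counts also called more of all genes than the main fits. Those counts therefore do not set the Argonaute genes apart from other genes. Treated against untreated RNA of rde-11 gave a count of 6, and 3 with a filter at 10 fpm (3 genes tested) or relative to the median gene. Some log2 changes turned their sign. In treated RNA, meg-3 meg-4 against N2, relative to the median gene, alg-1 was 0.034 and alg-2 0.016, and relative to the median microRNA alg-3 was -0.024. With edgeR, rde-1, alg-1 and alg-2 were 0.041, 0.040 and 0.040, and with DESeq2 0.093, 0.11 and 0.090. Leaving out 1 library gave rde-1 -0.82 to 0.38, alg-1 -0.31 to 0.094 and alg-2 -0.42 to 0.16. In untreated RNA of meg-3 meg-4, relative to the median gene, ergo-1, alg-3 and alg-4 were 0.082, 0.072 and 0.12, and alg-3 and alg-4 were 0.014 and 0.065 with edgeR and 0.0076 and 0.058 with DESeq2. Leaving out 1 library there gave rde-1 -1.11 to 0.097 and alg-4 -0.36 to 0.018. In untreated RNA of rde-11, rde-1 was -0.0038 relative to the median gene, -0.14 with edgeR, -0.10 with DESeq2 and -0.44 to 0.77 without 1 library, and its interaction was -0.079 to 1.13 without 1 library. Between the mutants alg-4 was 0.34 relative to the median gene, 0.22 with edgeR, 0.28 with DESeq2 and -0.18 to 0.14 without 1 library. Values of treated against untreated RNA that had been called higher turned relative to the median gene, and alg-2, alg-1 in meg-3 meg-4 and N2, and rde-1 in N2 were then called lower: rde-1 was -0.16 and ergo-1 -0.25 in meg-3 meg-4, and -0.58 and -0.029 in N2. alg-1 was -0.998, -0.31 and -0.78 and alg-2 -1.76, -2.35 and -1.81 in meg-3 meg-4, rde-11 and N2. Relative to the median microRNA, alg-3 was 0.44 and 0.068 in meg-3 meg-4 and rde-11, and alg-4 was 0.021, 0.57 and 0.47 in meg-3 meg-4, rde-11 and N2. Beyond the choice of scale, the cause of these shifts was not tested. A pseudocount of 0.25 changed no count of members called. The number of all genes called moved by over 1.5 times in several fits: for rde-11 in treated RNA it was 1784, against 456 with no filter, 528 with all 3 strains, 922 with DESeq2 and 4213 with the replicate block, for meg-3 meg-4 it was 1344, against 2589 with the block, and between the mutants 1947, against 4836 with the block. Depth limits rde-1, ergo-1, alg-1 and alg-2 in untreated RNA, where a group had 0 to 25 reads of each.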
